A study of Musculus with 2 samples.

Results

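A group of 10 genes of the JAK-STAT pathway was followed through mouse subcutaneous white adipose tissue: 4 signalling brakes (Socs1, Socs2, Socs3 and Cish), 2 cytokines (Il6 and Lif), 2 receptor chains (Il6st and Osmr), the transcription factor Stat3 and the secreted protease inhibitor Serpina3n. They were the 10 members of a list chosen with results of these data known, out of 32285 genes listed in each count matrix, and each of the 10 symbols matched 1 gene identifier. The 3 genes Socs1, Socs3 and Serpina3n were singled out because they were higher in the fibroblasts of the LPCAT3-AKO library, so their values over all fibroblasts are a description of what chose them.

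The cells were the stromal vascular fraction, which is what remains after collagenase digestion once floating fat cells have been spun off. One LPCAT3-AKO library (genotype LPCAT3 knockout) was set against 1 Control library (genotype WT), both made by 10x Genomics single-cell RNA sequencing. The enzyme LPCAT3 remodels phospholipids by loading polyunsaturated acyl chains onto lysophosphatidylcholine. The mice were 5 weeks old in the sample labels and 2 months old, fed CD (not spelled out), in the text of the series, so the age is unsettled. The sources used here give neither the number of mice nor their strain, and they do not name the promoter or Cre behind the knockout. With 1 library per group there was no test between genotypes and no p-value, and the spread between animals is unknown.

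Cytokines of the IL-6 family, such as IL-6, LIF and oncostatin M, signal through receptors that share the gp130 chain, the product of Il6st. JAK kinases bound to the receptor phosphorylate STAT3, which then enters the nucleus and switches on target genes. Socs3 is one of these targets, and its protein binds gp130 and JAK kinases and shuts the signal down. Socs1 is best known as the brake on interferon signalling, while Socs2 and Cish are classical targets and brakes of STAT5, which lies downstream of growth hormone and related cytokines. Serpina3n, one of a cluster of mouse counterparts of human alpha-1-antichymotrypsin, is a secreted acute phase protein.

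The LPCAT3-AKO matrix held 12806 barcodes with 119355147 UMIs, and the Control matrix held 13831 barcodes with 111669076 UMIs. After the cell filter and the removal of likely doublets, 10576 LPCAT3-AKO and 11191 Control cells remained, at a median of 8599.5 and 8078 UMIs. The libraries shared 36 barcode sequences among these cells. Fibroblast-like cells, which hold the fat cell precursors, numbered 5723 in the LPCAT3-AKO and 5592 in the Control library, and all 10 fibroblast markers were seen in at least 20% of them in both. The targeted gene Lpcat3 had 29.5 CPM in LPCAT3-AKO and 27.1 CPM in Control fibroblasts (log2 ratio 0.12), and 30.6 and 26.7 CPM over all cells. It therefore does not tell the libraries apart in this fraction, where the 6 mature adipocyte markers together had 8.71 CPM in LPCAT3-AKO and 9.31 CPM in Control fibroblasts, and whether the counted tags lie in the deleted part is not known.

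Levels are given in CPM, the UMIs of a gene per 1000000 UMIs summed over all cells of a class in a library, each with an exact Poisson 95% interval where one is printed. Differences are log2 ratios of CPM + 1, LPCAT3-AKO over Control. A gene was called higher or lower by a size rule: at least 20 CPM in the higher library, a ratio of at least 1.5 either way, and a 95% counting interval of the ratio that excludes 1. All intervals cover counting error only, and they are narrower than the true error because UMIs of 1 cell are not independent.

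In fibroblasts, 3 of the 10 members were higher and 1 was lower in the LPCAT3-AKO library, while 8 of the 10 reached 20 CPM. Over all 6066 genes at that level, 1.37% were higher and 0.775% were lower by the same rule. The rule that chose the members used this contrast, so nothing is read from the comparison of these shares. The median log2 ratio of the 8 members was 0.03.

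Socs1 had 74.8 CPM (72.5 to 77.1) in LPCAT3-AKO and 29.7 CPM (28.2 to 31.2) in Control fibroblasts, a log2 ratio of 1.31. Socs3 had 411.1 CPM (405.7 to 416.6) in LPCAT3-AKO and 180.3 CPM (176.7 to 184.0) in Control fibroblasts, a log2 ratio of 1.18. Socs2 went the other way, with 60.3 CPM (58.2 to 62.4) in LPCAT3-AKO and 90.6 CPM (88.0 to 93.2) in Control fibroblasts, a log2 ratio of -0.58. That ratio lay just inside the rule, and the call was lost when the fibroblast sub-clusters were weighted alike (-0.53). Cish stayed below 20 CPM, at 2.93 CPM in LPCAT3-AKO and 2.58 CPM in Control fibroblasts.

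Serpina3n had 145.3 CPM (142.1 to 148.6) in LPCAT3-AKO and 48.3 CPM (46.4 to 50.2) in Control fibroblasts, a log2 ratio of 1.57. A UMI of it was seen in 37.5% of LPCAT3-AKO and 20.2% of Control fibroblasts, at median depths of 9148 and 9397.5 UMIs per cell. The difference was therefore carried by more positive cells as well as by more UMIs. Serpina3n UMIs were not held by a few cells: the 1% of fibroblasts with most of them held 15.5% of its UMIs in the LPCAT3-AKO and 27.0% in the Control library.

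The cytokine, receptor and STAT3 members showed no comparable difference in fibroblasts. Il6, the cytokine, had 102.1 CPM in LPCAT3-AKO and 106.7 CPM in Control fibroblasts. Il6st had 191.5 and 177.2 CPM, Osmr, the oncostatin M receptor chain, 45.3 and 47.4 CPM, and Stat3 104.2 and 111.5 CPM, LPCAT3-AKO before Control. Lif was below 20 CPM at 4.21 CPM in LPCAT3-AKO and 5.28 CPM in Control fibroblasts. All 5 log2 ratios lay between -0.27 and 0.11.

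Genes of the same pathway outside the 10 members gave no further call in fibroblasts. None of the 4 measured receptor genes passed in either direction, and Il6ra, the IL-6 binding chain, came nearest, at 91.5 CPM in LPCAT3-AKO and 129.1 CPM in Control fibroblasts (log2 ratio -0.49). Cntfr, the binding chain for ciliary neurotrophic factor, stayed under 20 CPM, at 12.7 CPM in LPCAT3-AKO and 1.84 CPM in Control fibroblasts, a log2 ratio of 2.28. None of 8 receptors of other JAK-coupled cytokines passed, with the interferon-gamma receptor gene Ifngr1 at 209.2 CPM in LPCAT3-AKO and 191.7 CPM in Control fibroblasts. None of 6 JAK and STAT genes passed, with Jak1 at 439.7 CPM in LPCAT3-AKO and 480.0 CPM in Control fibroblasts. Of the other SOCS genes only Socs4 reached 20 CPM, at 36.5 CPM in LPCAT3-AKO and 37.6 CPM in Control fibroblasts. None of 5 further brakes, such as the phosphatase gene Ptpn11 (78.0 CPM in LPCAT3-AKO and 82.2 CPM in Control), passed. Over 17 other genes linked to STAT3, none passed and the median log2 ratio was -0.02: Cebpd had 1001.8 CPM in LPCAT3-AKO and 884.3 CPM in Control fibroblasts, Junb 1683.4 and 1725.3 CPM, and Mcl1 246.9 and 277.6 CPM. Nearest to the rule were Pim3, at 36.3 CPM in LPCAT3-AKO and 54.5 CPM in Control fibroblasts (-0.57), Steap4, at 72.4 and 48.7 CPM (0.56), and Timp1, at 70.0 and 48.0 CPM (0.53). Steap4 was called higher in the fibroblast sub-clusters numbered 1, 2 and 5 in the account of states that follows.

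None of the 9 other ligand genes of the family reached 20 CPM, and their summed level was 4.78 CPM in LPCAT3-AKO and 4.56 CPM in Control fibroblasts. Among 3 measured STAT5-linked genes none passed, and Igf1 had 300.5 CPM in LPCAT3-AKO and 210.6 CPM in Control fibroblasts (log2 ratio 0.51). Within the Serpina3 gene cluster, the only other member at 20 CPM was Serpina3c, at 37.9 CPM in LPCAT3-AKO and 34.9 CPM in Control fibroblasts. Far under 20 CPM, Serpina3g had 3.13 CPM in LPCAT3-AKO and 1.03 CPM in Control fibroblasts (log2 ratio 1.02). Serpina3f (0.13 and 0.364 CPM) and Serpina3i (0.185 and 0.306 CPM) lay the other way. Reads of such near-identical paralogs can be split or dropped by the counting, so levels within the cluster are uncertain.

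**Figure D1:**
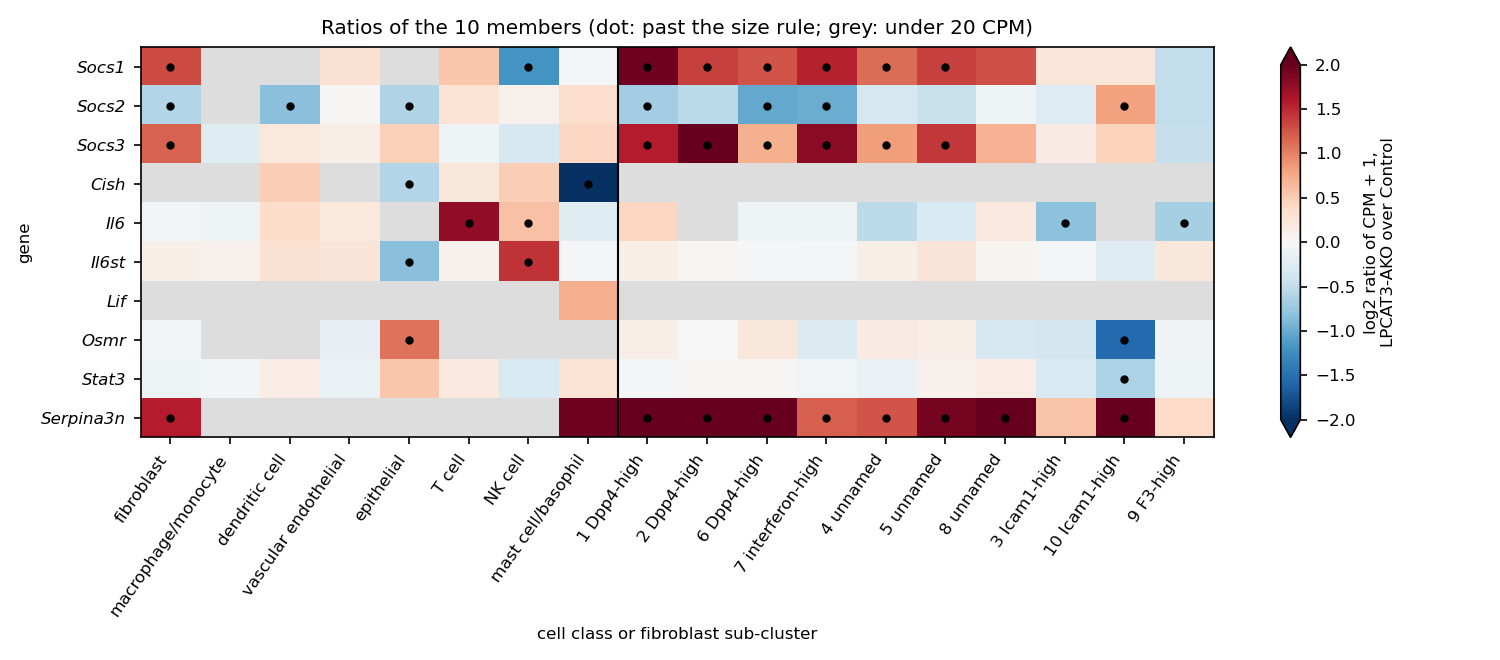
Log2 ratio of CPM + 1, LPCAT3-AKO over Control, for each of the 10 genes (rows) in 8 cell classes (left of the line) and 10 fibroblast sub-clusters (right of it). Dots mark values past the size rule and grey marks genes under 20 CPM in both libraries; Socs1, Socs3 and Serpina3n are all marked as higher in sub-clusters 1, 2, 6, 7, 4 and 5.

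Fibroblasts were next divided into 11 sub-clusters, made without the 10 members, the pathway lists and the immediate-early genes among the clustering genes. Names ending in -like rest on marker genes alone. Sub-clusters 1, 2 and 6 were Dpp4-high-like, the interstitial progenitors that express Dpp4 and Pi16, with 2646 LPCAT3-AKO and 3307 Control cells, or 46.2% and 59.1% of fibroblasts. Sub-clusters 3 and 10 were Icam1-high-like, the preadipocytes that express Icam1, Pparg and Fabp4, with 1485 LPCAT3-AKO and 880 Control cells, or 25.9% and 15.7%. Sub-cluster 7 was interferon-high-like (91 and 393 cells, also showing 80% of the Dpp4-high markers), sub-cluster 9 was F3-high-like, named for the tissue factor gene F3 (148 and 100 cells), and sub-clusters 4, 5 and 8 stayed unnamed. Sub-cluster 5 showed 90% of the Dpp4-high markers and sub-cluster 4 showed 50% of them. Sub-cluster 11, of dividing cells, held 32 LPCAT3-AKO and 5 Control cells and was not compared.

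Socs1, Socs3 and Serpina3n were all higher in the LPCAT3-AKO library in 6 of the 10 sub-clusters compared, namely 1, 2, 4, 5, 6 and 7. In sub-clusters 3, 8, 9 and 10 at least 1 of the 3 did not pass. In the pooled Dpp4-high-like cells, 3 members were higher and 1 was lower, where 0.729% and 0.644% of all genes at 20 CPM were. Socs1 had 90.8 CPM in LPCAT3-AKO and 26.3 CPM in Control cells of this state (ratio 3.45, interval 3.19 to 3.74). Socs3 had 416.3 and 141.4 CPM in the LPCAT3-AKO and Control libraries (2.94, 2.84 to 3.05). Serpina3n had 104.7 CPM in LPCAT3-AKO and 23.6 CPM in Control cells (4.44, 4.09 to 4.82). All 3 ratios were larger here than over fibroblasts as a whole.

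In Icam1-high-like cells no member was higher and 1 was lower, beside 0.819% of genes in each direction. The same held in sub-cluster 3 alone, where 0.855% of genes were higher and 0.872% were lower. Socs1 had 34.7 CPM (31.6 to 38.0) in LPCAT3-AKO and 29.3 CPM (25.6 to 33.4) in Control cells, intervals that overlap. Socs3 had 337.5 CPM in LPCAT3-AKO and 299.6 CPM in Control cells (ratio 1.13, 1.07 to 1.18). Serpina3n had 172.6 CPM in LPCAT3-AKO and 116.3 CPM in Control cells, and its ratio of 1.48 (1.37 to 1.6) fell just short of 1.5. It passed the rule in this state when doublets were left in (log2 ratio 0.65 against 0.57) and under 3 other alternatives. Over 11 alternatives its log2 ratio ran from 0.2, with cells thinned to 2000 UMIs, to 0.94, with a marker gate per cell.

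Setting the LPCAT3-AKO over Control ratio of Dpp4-high-like cells against that of Icam1-high-like cells gave 2.92 (2.44 to 3.48) for Socs1, 2.61 (2.46 to 2.78) for Socs3 and 2.99 (2.67 to 3.34) for Serpina3n. These are ratios of ratios with counting intervals, between the same 2 libraries, and not tests over animals. In the LPCAT3-AKO library Socs3 was higher in Dpp4-high-like than in Icam1-high-like cells, and in the Control library it was lower. Serpina3n was lower in Dpp4-high-like than in Icam1-high-like cells in both libraries.

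F3-high-like cells also lacked the joint difference, with no member higher and 1 lower beside 3.01% and 3.88% of genes. Socs1 had 30.8 CPM (20.8 to 44.0) in LPCAT3-AKO and 43.7 CPM (29.2 to 62.7) in Control cells. Socs3 had 321.7 CPM (287.0 to 359.4) in LPCAT3-AKO and 444.2 CPM (394.9 to 497.9) in Control cells, and Serpina3n had 188.1 and 144.5 CPM. The Socs1 sums rest on 30 and 29 UMIs and their intervals overlap. The intervals of Socs3, on 313 and 295 UMIs, do not overlap, and its log2 ratio of -0.46 did not pass. It was called lower with cells thinned to 2000 UMIs (-0.77) and without the 1% of cells with most UMIs (-0.59). When each cell was placed by its own markers (a marker gate per cell), Socs1 (log2 ratio 0.43) and Socs3 (0.27) lay above 0, uncalled. The direction of the SOCS genes in this state thus depended on how its cells were picked.

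**Figure D2:**
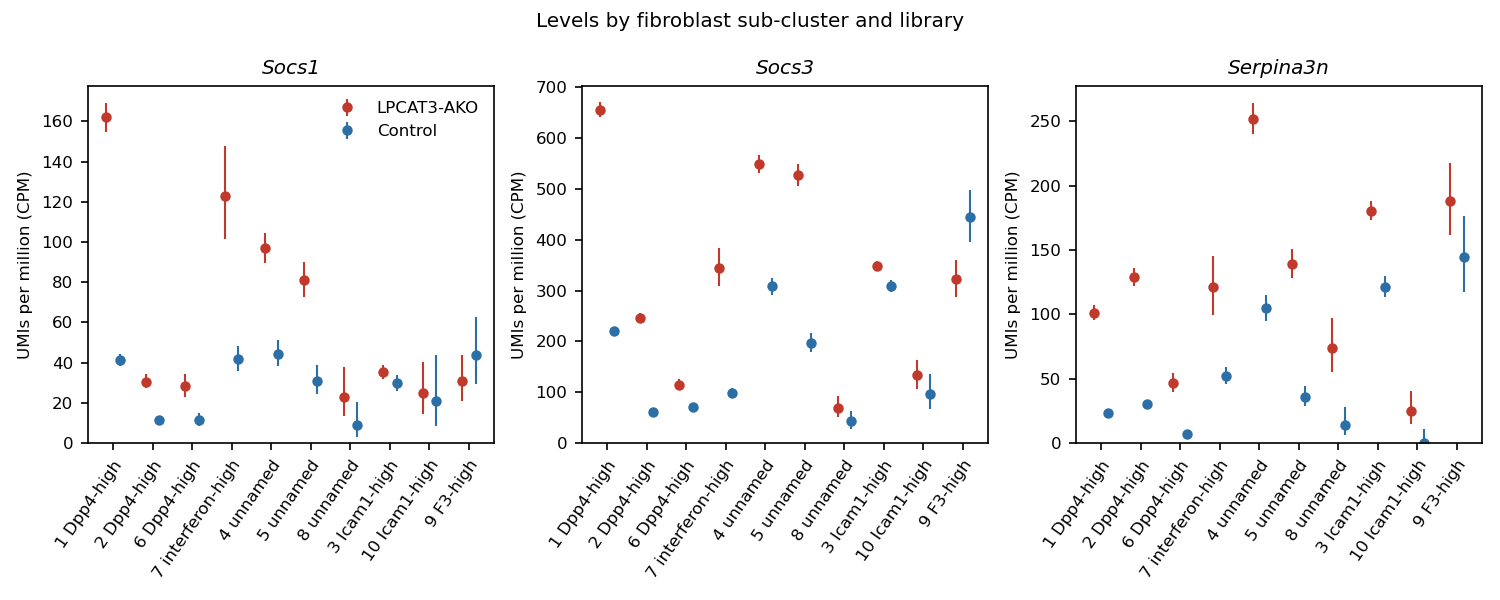
CPM of Socs1, Socs3 and Serpina3n (y axes) in 10 fibroblast sub-clusters (x axes, numbered and named as in the text), LPCAT3-AKO in red on the left and Control in blue on the right of each pair. Points are 1 library each and bars are exact Poisson 95% intervals; the red points stand above the blue ones for all 3 genes in sub-clusters 1, 2, 6, 7, 4 and 5, while in sub-cluster 9 those of Socs1 and Socs3 stand below.

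The sub-clusters with the joint difference varied in level. Sub-cluster 1, led by the inflammatory genes Ptgs2, Cxcl1, Ccl2 and Il6, held the highest Socs1 and Socs3 of the 10 in the LPCAT3-AKO library, but not in the Control library: 162.0 CPM of Socs1 in LPCAT3-AKO and 41.3 CPM in Control cells, and 655.5 CPM of Socs3 in LPCAT3-AKO and 219.4 CPM in Control cells. It supplied 40.9% of all Socs1 UMIs of the LPCAT3-AKO and 29.0% of those of the Control library. In this sub-cluster 3 members were higher and 1 was lower, where 1.02% and 0.936% of genes were.

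Sub-cluster 2, led by Cldn11 and Smpd3, had low Control levels and the largest ratio of Socs3, with 245.7 CPM in LPCAT3-AKO and 60.5 CPM in Control cells (4.06, 3.74 to 4.42). Its Socs1 had 30.6 CPM in LPCAT3-AKO and 11.2 CPM in Control cells, and its Serpina3n 128.9 and 30.2 CPM. Higher calls covered 3 members and 0.739% of genes, and lower calls covered no member and 0.706% of genes.

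Sub-cluster 6, led by Krtdap and Dmkn, had the lowest Control level of Serpina3n among the 6, with 46.6 CPM (39.8 to 54.2) in LPCAT3-AKO and 6.92 CPM (4.67 to 9.88) in Control cells. Socs3 there had 114.8 CPM in LPCAT3-AKO and 69.9 CPM in Control cells, the smallest ratio of the 6 (1.64), and with cells thinned to 2000 UMIs neither Socs1 (log2 ratio 0.62) nor Socs3 (0.48) kept its call. In sub-cluster 6, 3 members were higher and 1 was lower beside 1.41% and 1.64% of genes.

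Sub-cluster 4, led by Ccn5 and Cilp, held the highest Serpina3n of the 6, at 251.8 CPM in LPCAT3-AKO and 104.5 CPM in Control cells, with Socs1 at 96.8 and 44.3 CPM and Socs3 at 548.3 and 308.4 CPM. Here 3 members and 1.32% of genes were higher, and no member and 0.881% of genes were lower. With a ratio of 2 asked for, Socs3 lost its call in sub-clusters 4 and 6. Interferon-high-like cells had 123.0 CPM of Socs1 in LPCAT3-AKO and 41.7 CPM in Control cells, 344.7 and 97.5 CPM of Socs3, and 120.9 and 52.1 CPM of Serpina3n. With 91 LPCAT3-AKO cells in that state, 8.23% of genes were higher and 11.1% were lower, so its 3 higher members and 1 lower member stand among many calls.

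Sub-clusters 5 and 8 stood apart by their RNA. Sub-cluster 5 was led by skeletal muscle genes, and 7 of these together had 495.3 CPM in LPCAT3-AKO but 2.45 CPM in Control cells, so there the muscle RNA came almost wholly with 1 library. The summed CPM of the same 7 genes was also larger in LPCAT3-AKO than in Control cells of the 7 other sub-clusters examined, as in sub-cluster 6 with 57.4 CPM in LPCAT3-AKO and 4.38 CPM in Control cells, and sub-cluster 9 with 13.4 and 1.51 CPM. The part of that RNA in the Socs1 (81.0 and 31.0 CPM), Socs3 (526.5 and 197.1 CPM) and Serpina3n (138.9 and 35.9 CPM) differences of sub-cluster 5 was not tested, and 2.92% of genes were higher and 2.38% lower in that sub-cluster, beside 3 members higher and none lower. Sub-cluster 8 had a median of 2180.5 UMIs per cell. Serpina3n was its 1 higher member, at 73.7 CPM (54.9 to 96.9) in LPCAT3-AKO and 14.1 CPM (6.11 to 27.9) in Control cells, beside 3.92% of genes higher and 4.44% lower. Its log2 ratios of Socs1 (1.29, 0.0 to 2.87 over 9 alternatives) and Socs3 (0.7, 0.33 to 0.89) were not called. Each gained a call under 1 alternative. A UMI of Socs1 was seen in only 6.04% of LPCAT3-AKO and 2.38% of Control cells there, so the missing calls rest on few counts. Without these 2 sub-clusters the fibroblast calls of Socs1, Socs3 and Serpina3n were the same.

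In sub-cluster 10, the smaller Icam1-high-like group of 87 LPCAT3-AKO and 52 Control cells, Serpina3n had 17 UMIs in the LPCAT3-AKO and 0 UMIs in the Control library, which allows up to 9.06 CPM there. Socs2 was higher, on 61 and 17 UMIs, and Osmr, at 35.4 CPM in LPCAT3-AKO and 105.7 CPM in Control cells, and Stat3, at 110.8 and 172.2 CPM, were lower. These 2 higher and 2 lower members stand beside 6.06% and 4.76% of all genes. Of 8 alternatives, the Socs2 call was lost under 6 and the Serpina3n call under 3.

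Of the 4739 genes at 20 CPM in each of sub-clusters 1 to 7 and 9, 6 were higher in all 6 sub-clusters where the 3 members were. Besides the 3 members they were the ribosomal protein genes Rpl38 and Rps29 and the gene AC149090.1. AC149090.1 was also higher in sub-clusters 3 and 9, Rps29 in sub-cluster 3 and Rpl38 in sub-cluster 9. Socs1, Socs3 and Serpina3n were called in neither, which is how these sub-clusters were chosen. In sub-cluster 3 Serpina3n and Rpl38 had the same log2 ratio of 0.57, just short of the rule. Another 5 genes, Apoe, Ccl2, Hspa1a, Hspa1b and Rnase10, were lower in all 6. The 6 sub-clusters were picked by the members themselves and these other genes were found afterwards. The place of the 3 members was thus fixed in advance, and the small number of other genes does not show that the pattern is rare. Serpina3n was also higher in sub-clusters left out of this count.

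UMIs of the 3 genes were also counted within single cells. With each cell thinned to 5000 UMIs, which left out 665 LPCAT3-AKO and 692 Control fibroblasts, a UMI of all 3 genes was found in 5.83% (5.2 to 6.51) of LPCAT3-AKO and 1.55% (1.22 to 1.94) of Control fibroblasts (exact Clopper-Pearson intervals). Unthinned, the share was 11.1% in LPCAT3-AKO and 3.84% in Control fibroblasts. The product of the 3 single shares was 2.74% in LPCAT3-AKO and 0.503% in Control fibroblasts, below the measured share in both. By pairs, Socs1 with Socs3 stood furthest above its product, at 14.2% against 8.99% in LPCAT3-AKO and 6.35% against 3.77% in Control fibroblasts. Serpina3n with Socs1 was nearer its product, at 6.68% against 5.45% in LPCAT3-AKO and 2.0% against 1.43% in Control fibroblasts. Serpina3n with Socs3 was also nearer its product in both libraries. The excess was thus not shared evenly by the 3 genes. In Dpp4-high-like cells the share of all 3 was 5.84% in LPCAT3-AKO and 0.689% in Control cells, with products of 2.49% and 0.249%. In Icam1-high-like cells it was 3.03% (2.16 to 4.12) and 3.24% (2.13 to 4.71), with products of 1.65% and 0.974%. Sub-cluster 1 reached 10.9% in LPCAT3-AKO and 1.16% in Control cells, and sub-cluster 4 reached 13.3% and 4.68%.

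**Figure D3:**
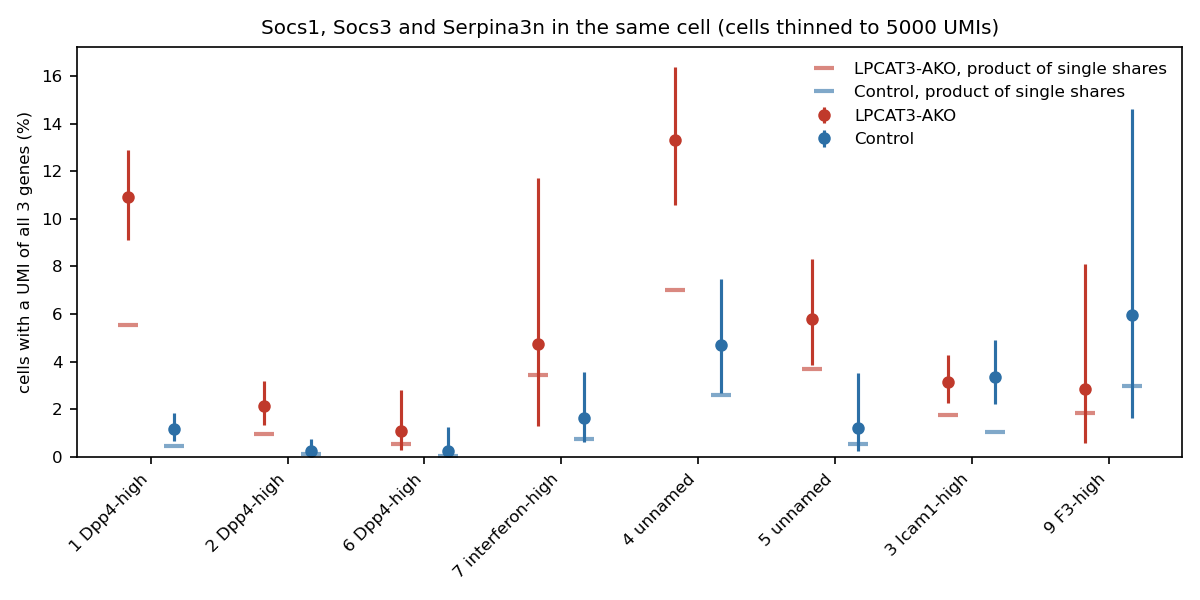
Share of cells (y axis, %) with a UMI of Socs1, Socs3 and Serpina3n together, by fibroblast sub-cluster (x axis), with cells thinned to 5000 UMIs; red LPCAT3-AKO points stand left of blue Control points, bars are exact 95% intervals, and dashes give the product of the 3 single shares. Sub-clusters 8 and 10 had too few cells of that depth; in sub-cluster 1 the red point is at 10.9% and the blue one at 1.16%, and in sub-cluster 3 the points are at 3.15% and 3.37%.

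Immediate-early genes, which dissociation of tissue also induces, were examined beside the members. Their 26 genes together had 18505.0 CPM in LPCAT3-AKO and 21570.4 CPM in Control fibroblasts, and of the 24 measured 3 were lower (Fosb, Ier5 and Nr4a3) and none higher, at a median log2 ratio of -0.18. The same sum was 19973.6 CPM in LPCAT3-AKO and 22617.7 CPM in Control Dpp4-high-like cells, and 20013.4 and 22812.9 CPM in Icam1-high-like cells. NF-kB targets were lower still, with 7 of 17 measured genes lower, none higher and a median of -0.51: Ccl2 had 217.4 CPM in LPCAT3-AKO and 576.8 CPM in Control fibroblasts, Cxcl1 679.6 and 1215.8 CPM, and Nfkbia 697.3 and 1077.7 CPM. Of 13 type I interferon genes 4 were lower and none higher, with Ifit1 at 119.6 CPM in LPCAT3-AKO and 231.4 CPM in Control fibroblasts, while the 14 genes together had 6248.3 CPM in LPCAT3-AKO and 5689.1 CPM in Control fibroblasts. Interferon-high-like cells made up 1.59% of LPCAT3-AKO and 7.03% of Control fibroblasts. In Dpp4-high-like cells none of 13 type I interferon genes was lower and Irf7 was higher. Interferon genes were not kept out of the clustering, and cells high in them were set apart as sub-cluster 7, which showed 80% of the Dpp4-high markers. The lack of lower interferon genes in the remaining Dpp4-high-like cells is thus shaped by that split, and nothing is read from it. Of 13 interferon-gamma genes over all fibroblasts, Cxcl9 was higher and Igtp lower. None of 12 glucocorticoid-linked genes passed, and of 11 heat shock genes 2 were lower. The parts of these programmes in the difference of the SOCS genes were not tested.

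Cells were therefore also compared within 4 bins of equal size by the share of their UMIs from immediate-early genes, set over both libraries of each state. In Dpp4-high-like cells Socs3 and Serpina3n were higher in the LPCAT3-AKO library in all 4 bins and Socs1 in the upper 3. Socs1 was below 20 CPM in the lowest bin, at 5.76 CPM in LPCAT3-AKO and 5.19 CPM in Control cells. From the lowest to the highest bin, Socs3 had 43.5, 437.7, 629.3 and 513.6 CPM in LPCAT3-AKO and 21.8, 103.9, 172.4 and 219.7 CPM in Control cells. Serpina3n had 141.9, 110.6, 92.5 and 70.7 CPM in LPCAT3-AKO and 28.3, 21.2, 16.7 and 29.1 CPM in Control cells. Serpina3n was thus highest where the SOCS genes were lowest in LPCAT3-AKO cells.

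The Icam1-high-like state was not uniform by this division. In its second bin all 3 genes were higher: Socs1 had 36.7 CPM in LPCAT3-AKO and 16.4 CPM in Control cells, Socs3 236.8 and 135.0 CPM, and Serpina3n 217.9 and 95.6 CPM. In its highest bin Socs1 had 51.5 CPM in LPCAT3-AKO and 64.6 CPM in Control cells, and Serpina3n was lower, at 40.8 CPM in LPCAT3-AKO and 89.2 CPM in Control cells. The absence of a joint difference in this state is therefore a statement about its sum.

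**Figure D4:**
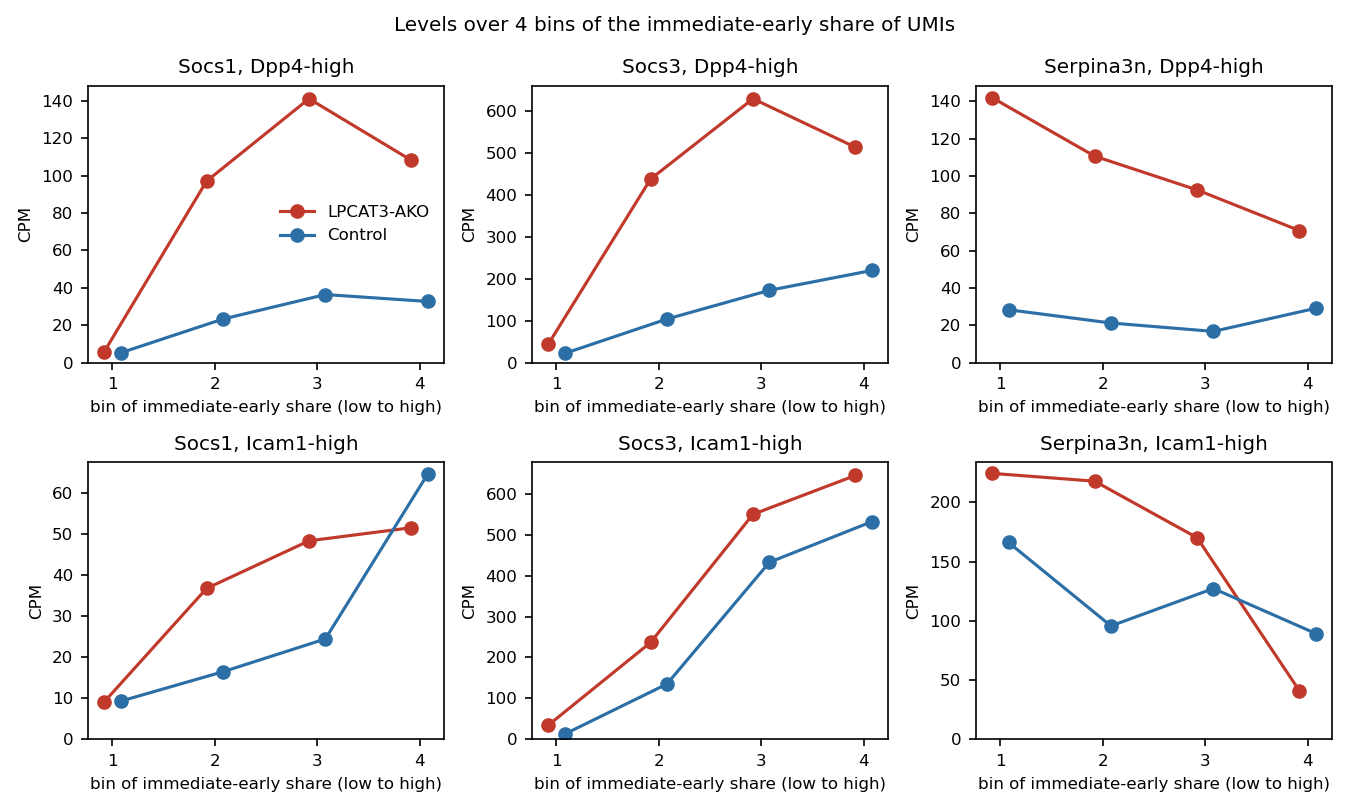
CPM of Socs1, Socs3 and Serpina3n (y axes) in 4 equal bins of the immediate-early share of UMIs per cell (x axes, low to high), in Dpp4-high-like cells (upper row) and Icam1-high-like cells (lower row). Red is LPCAT3-AKO and blue is Control, 1 library each; the red line lies above the blue one in every bin of the upper row, and the lines cross for Socs1 and Serpina3n in the lower row.

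The other members behaved differently over the fibroblast states. Socs2 was lower in Dpp4-high-like cells, at 63.0 CPM in LPCAT3-AKO and 101.2 CPM in Control cells, and in interferon-high-like cells, at 45.6 and 91.5 CPM. In Icam1-high-like cells it had 61.5 CPM in LPCAT3-AKO and 71.1 CPM in Control cells, which did not pass. In these 2 states Socs2 was thus lower while Socs1 and Socs3 were higher. Over the 4 immediate-early bins of Dpp4-high-like cells Socs2 had 58.6, 74.7, 61.5 and 52.6 CPM in LPCAT3-AKO and 110.8, 101.0, 102.6 and 94.0 CPM in Control cells, and it passed as lower in all but the second bin.

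Il6 was the 1 lower member in both Icam1-high-like and F3-high-like cells. It had 26.1 CPM (23.5 to 29.0) in LPCAT3-AKO and 46.1 CPM (41.5 to 51.2) in Control Icam1-high-like cells, and 46.3 and 73.8 CPM in F3-high-like cells, on 45 and 49 UMIs. The F3-high-like call was lost under 6 of 10 alternatives, and the Icam1-high-like one under 2 of 11, among them a marker gate per cell (log2 ratio -0.03 in place of -0.8). Dpp4-high-like cells had 167.6 CPM of it in LPCAT3-AKO and 134.7 CPM in Control cells, not past the rule. Most fibroblast Il6 lay in sub-cluster 1, at 341.7 CPM in LPCAT3-AKO and 255.6 CPM in Control cells, a sub-cluster of which Il6 is a leading gene.

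Il6st, Osmr and Stat3 passed the size rule in none of the 4 named states. Il6st had 165.9 CPM in LPCAT3-AKO and 157.9 CPM in Control Dpp4-high-like cells, 182.8 and 189.1 CPM in Icam1-high-like cells, and 367.9 and 314.7 CPM in F3-high-like cells. Osmr had 40.5 CPM in LPCAT3-AKO and 38.6 CPM in Control Dpp4-high-like cells, and 52.5 and 70.7 CPM in Icam1-high-like cells. Stat3 had 104.3 CPM in LPCAT3-AKO and 106.8 CPM in Control Dpp4-high-like cells, and 117.0 and 146.6 CPM in Icam1-high-like cells. The Icam1-high-like values of Osmr (log2 ratio -0.42) and Stat3 (-0.32) lay below 0 without passing.

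Among the further pathway genes, Fgl2, which encodes a fibrinogen-like protein and was listed among the STAT3-linked genes, was higher in Dpp4-high-like cells (388.5 CPM in LPCAT3-AKO and 255.6 CPM in Control) and lower in Icam1-high-like cells (224.5 and 340.7 CPM). Cntfr was higher in Icam1-high-like cells, at 29.6 CPM in LPCAT3-AKO and 7.32 CPM in Control cells. No other gene of the receptor and STAT3-linked lists passed in these 2 states.

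Markers of other cells were low in fibroblasts of both libraries. The 10 macrophage markers together had 210.0 CPM in LPCAT3-AKO and 208.0 CPM in Control fibroblasts, against 19016.6 and 19405.1 CPM in macrophages, with none of the 10 at 0. The 10 epithelial markers had 29.4 CPM in LPCAT3-AKO and 16.2 CPM in Control fibroblasts, and the 10 vascular endothelial markers 94.8 and 109.1 CPM. Their part in the differences was not tested.

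In macrophage-like and monocyte-like cells no member was called, beside 1.32% of genes higher and 0.568% lower, and 4 of the 10 members reached 20 CPM. Socs3 had 106.2 CPM in LPCAT3-AKO and 126.2 CPM in Control macrophages, Stat3 281.8 and 292.9 CPM, Il6st 53.3 and 50.2 CPM, and Il6 193.7 and 207.3 CPM. Socs1 stayed at 13.5 CPM in LPCAT3-AKO and 18.9 CPM in Control macrophages, so neither brake followed the fibroblasts.

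Macrophage Il6 was concentrated in 1 sub-cluster led by Areg, Il6 and Il1b, with 402 LPCAT3-AKO and 544 Control cells. It had 868.5 CPM (842.5 to 895.0) in LPCAT3-AKO and 860.4 CPM (836.0 to 885.3) in Control cells there, intervals that overlap, and a UMI in 74.6% and 72.4% of cells. This sub-cluster supplied 34.0% of all Il6 UMIs of the LPCAT3-AKO and 37.3% of those of the Control library, and fibroblast sub-cluster 1 supplied 32.9% and 32.5%. In dividing macrophages (297 LPCAT3-AKO and 135 Control cells) Il6 was lower, at 232.4 CPM in LPCAT3-AKO and 530.6 CPM in Control cells, as was Socs2, beside 2.87% of genes lower and 9.94% higher.

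Among macrophage sub-clusters with resident markers, single members passed. Il6 was lower in one of 756 LPCAT3-AKO and 1135 Control cells, at 13.1 CPM in LPCAT3-AKO and 21.1 CPM in Control cells, beside 1.04% of genes lower and 1.38% higher. Socs3 was higher in one led by heat shock genes, at 71.4 CPM (55.4 to 90.7) in LPCAT3-AKO and 44.2 CPM (32.2 to 59.1) in Control cells, beside 3.12% of genes higher and 2.55% lower. It was lower in one led by Ly6c2, at 54.1 CPM in LPCAT3-AKO and 101.4 CPM in Control cells, beside 2.65% of genes lower and 3.87% higher.

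Vascular endothelial-like cells (270 LPCAT3-AKO and 227 Control cells) had no member past the rule, beside 2.04% of genes higher and 0.936% lower. They held the highest Osmr and Il6st of the 8 classes in both libraries: Osmr had 171.2 CPM (156.7 to 186.8) in LPCAT3-AKO and 190.9 CPM (174.5 to 208.4) in Control cells, and Il6st 250.8 and 211.1 CPM. Socs3 had 302.4 CPM in LPCAT3-AKO and 273.7 CPM in Control cells, and Socs1 32.4 and 26.0 CPM. Some of these cells also showed mural markers, and the 10 mural markers together had 3298.3 CPM in LPCAT3-AKO and 2747.0 CPM in Control cells of the class, a part that was not tested.

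In epithelial-like cells (270 LPCAT3-AKO and 111 Control cells) Osmr was higher and Socs2, Cish and Il6st were lower, but 8.83% of genes were higher and 7.91% were lower. Osmr had 31.5 CPM in LPCAT3-AKO and 14.4 CPM in Control cells. Il6st had 67.9 CPM in LPCAT3-AKO and 122.1 CPM in Control cells, Cish 44.8 and 67.9 CPM, and Socs2 46.0 and 70.3 CPM. In the same cells 19 of 22 immediate-early genes were higher, with 13996.6 CPM in LPCAT3-AKO and 6578.8 CPM in Control cells for the whole list, as were 9 of 14 NF-kB genes and 7 of 17 other STAT3-linked genes, and their part in the 4 calls was not tested. None of the 4 calls was made when doublets were left in, where the log2 ratio of Osmr was -0.32 in place of 1.08. Over all 10 alternatives the call was lost for Socs2 under 8, for Cish under 7, for Il6st under 5 and for Osmr under 3, with Osmr reversed under 1 more.

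Smaller immune classes gave scattered calls. Dendritic-like cells had Socs2 lower, at 24.5 CPM in LPCAT3-AKO and 44.8 CPM in Control cells, beside 1.59% of genes lower and 2.02% higher. In mast cell-like and basophil-like cells Cish was lower on 3 UMIs in the LPCAT3-AKO and 12 UMIs in the Control library, beside 2.66% of genes lower and 3.41% higher. The same cells held the highest Socs2 of the 8 classes, at 533.7 CPM (425.1 to 661.6) in LPCAT3-AKO and 419.7 CPM (316.2 to 546.4) in Control cells, intervals that overlap. In T-like cells (165 LPCAT3-AKO and 122 Control cells) Il6 was higher, at 88.0 CPM in LPCAT3-AKO and 24.9 CPM in Control cells, beside 4.52% of genes higher and 5.46% lower. In NK-like cells (109 and 123 cells) Il6 and Il6st were higher and Socs1 was lower, beside 7.54% of genes higher and 6.36% lower, and Socs1 had 25.7 CPM in LPCAT3-AKO and 60.1 CPM in Control cells.

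**Figure D5:**
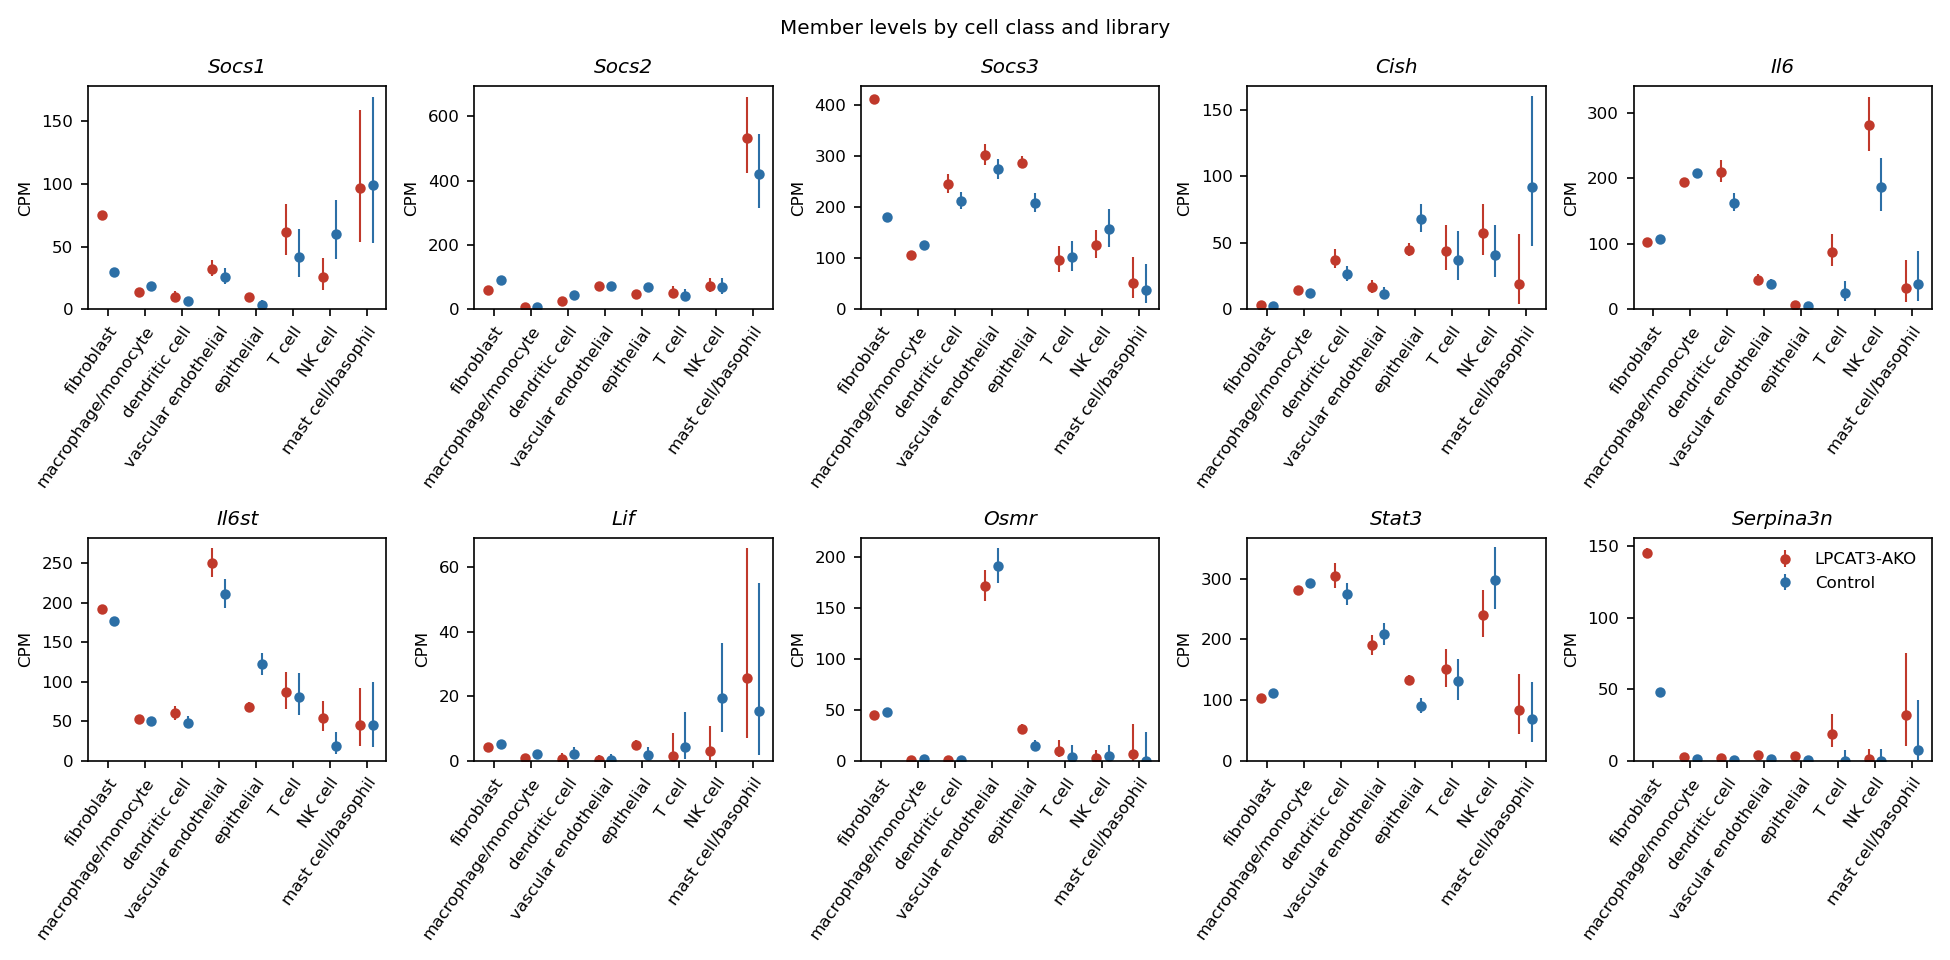
CPM of each of the 10 genes (y axes, starting at 0) in 8 cell classes (x axes), LPCAT3-AKO in red on the left and Control in blue on the right of each pair. Points are 1 library each with exact Poisson 95% intervals; Serpina3n stands at 145.3 and 48.3 CPM in fibroblasts and near 0 in most other classes.

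Serpina3n was close to a fibroblast gene in this fraction: 98.0% of its UMIs in the LPCAT3-AKO and 98.5% in the Control library lay in fibroblasts. Macrophages had a UMI of it in 2.16% of LPCAT3-AKO and 0.635% of Control cells, at median depths of 8069 and 6375 UMIs. In dividing macrophages the shares were 6.4% in LPCAT3-AKO and 0.0% in Control cells. A macrophage sub-cluster of 42 LPCAT3-AKO and 49 Control cells was led by fibroblast genes such as Dcn and Col1a2. The parts of such cells, of free RNA and of expression by macrophages in these shares were not tested. For Socs1 the fibroblast share of UMIs was 84.8% in the LPCAT3-AKO and 67.8% in the Control library, and for Socs3 it was 73.5% and 60.0%. Il6 UMIs were divided between fibroblasts (44.2% in LPCAT3-AKO and 44.1% in Control) and macrophages (45.1% and 48.8%).

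Likeness to other genes was measured as Pearson's r of log2(CPM + 1) over 30 sums of a class or fibroblast state in a library, which share libraries and depth, among 10658 genes. Serpina3n was most like Tmeff2 (0.947), Calhm5 (0.943), Mrc2 (0.935), Fbln1 (0.934) and Ccl11 (0.934). Socs1 was most like Gem (0.804), Eif1b (0.772), Enc1 (0.76), Fundc2 (0.747) and Disp1 (0.729), and Socs3 was most like Tpgs1 (0.798), Commd1 (0.743), Mrpl4 (0.694), Dhrs4 (0.684) and Iscu (0.682). Over the same sums Socs1 and Socs3 had an r of 0.031, Socs1 and Serpina3n 0.566, and Socs3 and Serpina3n 0.246, so the 3 genes differed in their spread over cell types.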

How the data were processed

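Single-cell RNA libraries of the stromal vascular fraction were deposited by the authors as raw UMI counts, 1 matrix per group, with no normalization. Per the submitters' processing notes, Cell Ranger 6.1.2 and Seurat were used on mm10; the sources used here do not name the annotation release. Cells with 500 or more genes and at most 10% mitochondrial UMIs were kept. Scrublet scored doublets, and the top scores were removed at 0.8% per 1000 cells (1088 LPCAT3-AKO and 1235 Control cells), against 4.8% and 4.74% called by its own threshold. Clustering used scanpy 1.11.5 (2000 variable genes, 30 components, 15 neighbours, Leiden resolution 1.0, sub-clusters 0.5, seed 0). A marker counted as shown in 20% of cells and at 30% of the highest cluster level; a class needed 3 markers and a state 60% of its list. Classes with fewer than 50 cells in a library were not compared. UMIs were summed per class and library and set as CPM. The comparison was tested on simulated data, drawn as independent Poisson counts from the Control fibroblast levels. These hold no spread between cells or animals, so that test does not show how far the intervals are too narrow. Alternatives changed doublets, depth, filters, weighting, scaling, the size rule, the gating and the clustering.

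The members and lists were chosen with earlier results of these data known. The named genes are the 10 members, up to 4 genes of each list in fibroblasts (called genes of highest CPM, or all where none was called) and the 5 genes most like each of Socs1, Socs3 and Serpina3n. The genes Cntfr, Steap4, Timp1, Pim3, Irf7, Rpl38, Rps29, AC149090.1, Apoe, Hspa1b and Rnase10 were named after their values were seen. Promoter sequences were not analysed here.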

Additional observations from a re-analysis of the deposited data

Results flagged for a closer look

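Among cell classes and named fibroblast states, Socs1, Il6 and Il6st passed the size rule in opposite directions in different cells of the same pair of libraries, and the difference between the cells was not tested, since each group holds 1 library. Socs1 was higher in fibroblasts (log2 ratio 1.31), Dpp4-high-like (1.75) and interferon-high-like cells (1.54), but lower in NK-like cells (-1.19), on 17 UMIs in 13 LPCAT3-AKO and 28 UMIs in 23 Control cells, where 6.36% of genes were lower. Il6 was lower in Icam1-high-like (-0.8) and F3-high-like cells (-0.66), but higher in T-like cells (1.78), on 56 UMIs in 11 LPCAT3-AKO and 12 UMIs in 5 Control cells, beside 4.52% of genes. It was also higher in NK-like cells (0.59), on 186 UMIs in 22 LPCAT3-AKO and 87 UMIs in 11 Control cells, beside 7.54% of genes. Il6st was higher in NK-like cells (1.45), on 36 LPCAT3-AKO and 9 Control UMIs, and lower in epithelial-like cells (-0.84).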

How the results depend on the processing

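In fibroblasts, Socs1 (log2 ratio 1.23 to 1.45), Socs3 (1.07 to 1.37) and Serpina3n (1.31 to 1.77) kept their direction and call under all 13 alternatives computed for them. The 1 lower member, Socs2, was no longer called with sub-clusters weighted alike, at a ratio of 2, without doublet removal and with a marker gate per cell, which left 0 lower members. That gate was coarse: it placed 2207 LPCAT3-AKO and 2328 Control cells among fibroblasts. The 3 genes were jointly higher in 3 of 4 sub-clusters at a sub-cluster resolution of 0.25, against 6 of 10 at 0.5, and in 4 of 7 with the members kept for clustering. In epithelial-like cells Socs3 turned to -0.6 with bins of the immediate-early share weighted alike and to -0.63 without doublet removal, and Osmr to -0.32 without it; the cause was not tested. Of the single genes and states, 52 values lost a call, 36 gained one and 3 with a call before or after changed sign. The other 1095 values kept their call or stayed without one. That number includes genes never called and uncalled values that changed sign, so it does not measure how stable the calls were. An uncalled change of sign was that of Socs1 in F3-high-like cells, at -0.49 and, with a marker gate per cell, at 0.43. The alternative without sub-clusters 5 and 8 was chosen after seeing the data. No paired analysis was possible because each group holds 1 library. Calls on fewer than about 50 UMIs are limited by depth.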
